A study of Mus musculus with 12 samples.

Results

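The rod phototransduction cascade genes Gnat1, Gnb1, Gngt1, Cnga1, Cngb1, Slc24a1, Sag, Grk1 and Rcvrn were picked by gene name, 9 of 32867 genes in the table. They were read in total RNA of whole retinas from 12 mouse samples in 4 groups of 3. The controls were C3H mice with wild-type photoreceptors, 1 sample labelled for each of postnatal days 13, 23 and 29. The rd1 group carried Pde6b rd1, in which a retroviral insertion disrupts the beta subunit of the rod phosphodiesterase, and was taken at day 13. The rd10 group carried Pde6b rd10, a point mutation that leaves a less active enzyme, and was taken at day 23. The rd2 group carried Prph rd2, which removes the outer segment protein peripherin, so that outer segments do not form, and was taken at day 29. The study's methods give a C3H background for rd1 and rd2 and C57Bl6/J for rd10, whereas the labels name C57BL6/J for rd2. Strain and genotype therefore cannot be told apart in rd10, nor in rd2 if the labels hold. Per the methods, animals were taken irrespective of sex.

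In a rod, light activates the visual pigment, which loads GTP onto the alpha subunit of transducin, and the freed alpha subunit switches on the phosphodiesterase PDE6 that destroys cyclic GMP. Falling cyclic GMP closes cation channels of the outer segment, the cell hyperpolarizes, and the Na+/Ca2+,K+ exchanger goes on removing calcium. The response ends when a kinase phosphorylates the pigment and arrestin binds it, while recoverin restrains the kinase as long as calcium is high. In Pde6b mutants cyclic GMP accumulates and rods die, and in rd2 the rods lack the compartment in which the cascade works.

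Library depth was 17049495 to 24755890 reads counted on genes. Pde6b itself had 56.7 to 57.6 FPKM (fragments per kilobase of gene scaled to library size, as deposited) in rd1 against 241 to 245 in C3H, and Prph2 had 421 to 482 in rd2 against 885 to 976 in C3H. The 9 genes varied little among the C3H samples, with a coefficient of variation of 0.675% to 7.61%, although their labelled ages differ. In rd1, rd2 and rd10, with 1 age each, the highest coefficients were 7.99%, 6.84%, 13.0% in that order. Over all genes, the edgeR estimate of variation between samples beyond counting noise was 3.08% in C3H. It was 3.31% in rd1, 7.40% in rd2 and 4.97% in rd10. Whether the C3H samples truly differ in age could not be settled. Each model has 1 age and C3H pools the labelled ages, so the fits against C3H do not separate age from genotype. The p-values measure the spread between these samples, since the labels do not say whether samples came from separate animals. Because RNA came from whole retinas, fewer rods and less RNA per rod cannot be told apart.

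The stretch of 250 bases before the transcription start is shown for 4 genes that stand for the 2 patterns. Sag and Gnb1 were called lower in both rd1 and rd10. Grk1 and Slc24a1 were called lower in rd1 and called higher in rd10 than in rd1. Sequences and starts are from RefSeq (GRCm38.p6), which matched 7 of the 9 genes, and are written 5′ to 3′ on the gene's strand. Capitals mark TAATCC, the core bound by the photoreceptor factor CRX and its relatives, or TGCTGA, a half-site of the rod factor NRL, on either strand.
Sag (chr1:87803430-87803679, plus strand): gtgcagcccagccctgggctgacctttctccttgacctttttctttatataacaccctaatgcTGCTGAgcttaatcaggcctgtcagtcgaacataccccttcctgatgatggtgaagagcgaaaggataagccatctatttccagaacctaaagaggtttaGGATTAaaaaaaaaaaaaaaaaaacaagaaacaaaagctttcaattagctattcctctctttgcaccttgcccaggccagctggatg
Gnb1 (chr4:155491111-155491360, plus strand): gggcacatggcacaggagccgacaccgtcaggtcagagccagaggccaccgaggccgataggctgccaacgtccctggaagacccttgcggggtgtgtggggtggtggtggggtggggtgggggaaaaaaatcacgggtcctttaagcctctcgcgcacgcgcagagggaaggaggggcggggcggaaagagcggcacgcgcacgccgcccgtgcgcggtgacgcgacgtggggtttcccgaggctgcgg
Grk1 (chr8:13404831-13405080, plus strand): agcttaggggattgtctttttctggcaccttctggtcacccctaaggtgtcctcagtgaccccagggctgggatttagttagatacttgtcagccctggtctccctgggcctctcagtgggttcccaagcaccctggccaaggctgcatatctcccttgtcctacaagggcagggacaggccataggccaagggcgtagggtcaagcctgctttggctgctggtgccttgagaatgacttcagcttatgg
Slc24a1 (chr9:64951621-64951870, minus strand): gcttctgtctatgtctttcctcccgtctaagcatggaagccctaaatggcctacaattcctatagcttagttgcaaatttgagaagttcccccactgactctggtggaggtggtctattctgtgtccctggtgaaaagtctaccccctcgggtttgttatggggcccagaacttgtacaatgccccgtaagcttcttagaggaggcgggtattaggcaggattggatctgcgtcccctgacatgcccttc
The Sag stretch held TGCTGA with its first base 187 bases before the start and the reverse complement of TAATCC at 87 bases before it, without overlap. Neither motif was present in the Gnb1, Grk1 and Slc24a1 stretches. TAATCC was found in 4 of the 7 stretches, those of Sag, Gngt1, Cnga1 and Cngb1, with 2 copies in Cngb1 at 58 and 25 bases before the start, and in 6.25% of all 32851 promoter stretches of the same length. TGCTGA was found in 1 of 7, that of Sag, and in 16.1% of all stretches. These matches are letters in a window and say nothing of binding.

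The 9 genes were lower in rd1 than in C3H throughout, lower by a smaller step in rd2, and unevenly lower in rd10. They took up 1.56% to 1.59% of all gene reads in C3H, 0.839% to 0.854% in rd1, 1.15% to 1.16% in rd10 and 1.28% to 1.32% in rd2, with no overlap between any groups. At an unadjusted p under 0.05 and a change of at least 1.5-fold, the study's rule and here what is meant by called, 7 of 9 were called lower in rd1, where 6.03% of all tested genes were. In rd10, 4 of 9 were called lower against a background of 8.08%, and in rd2 0 of 9 against 1.89%. With an adjusted p under 0.05 and no fold limit, 9 of 9 were lower in rd1 (background 21.3%), 8 of 9 in rd10 (26.3%) and 7 of 9 in rd2 (5.17%). In rd2 that count rested on the test and the samples, since limma on FPKM values left 4 (Gnb1, Gngt1, Rcvrn and Cnga1), and Slc24a1 missed the threshold without any 1 of the 3 C3H samples. DESeq2 with the 1.5-fold limit also called 0 of 9 in rd2. The median log2 fold change of the 9 was -0.77 in rd1, -0.56 in rd10 and -0.23 in rd2, and the median over all tested genes lay within 0.011 of 0 in each. All 3 model samples lay below all 3 C3H samples for 9 of 9 genes in rd1 (27.5% of all genes), 8 of 9 in rd10 (28.2%) and 9 of 9 in rd2 (13.7%). The 3 comparisons share the C3H samples.

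**Figure D1:**
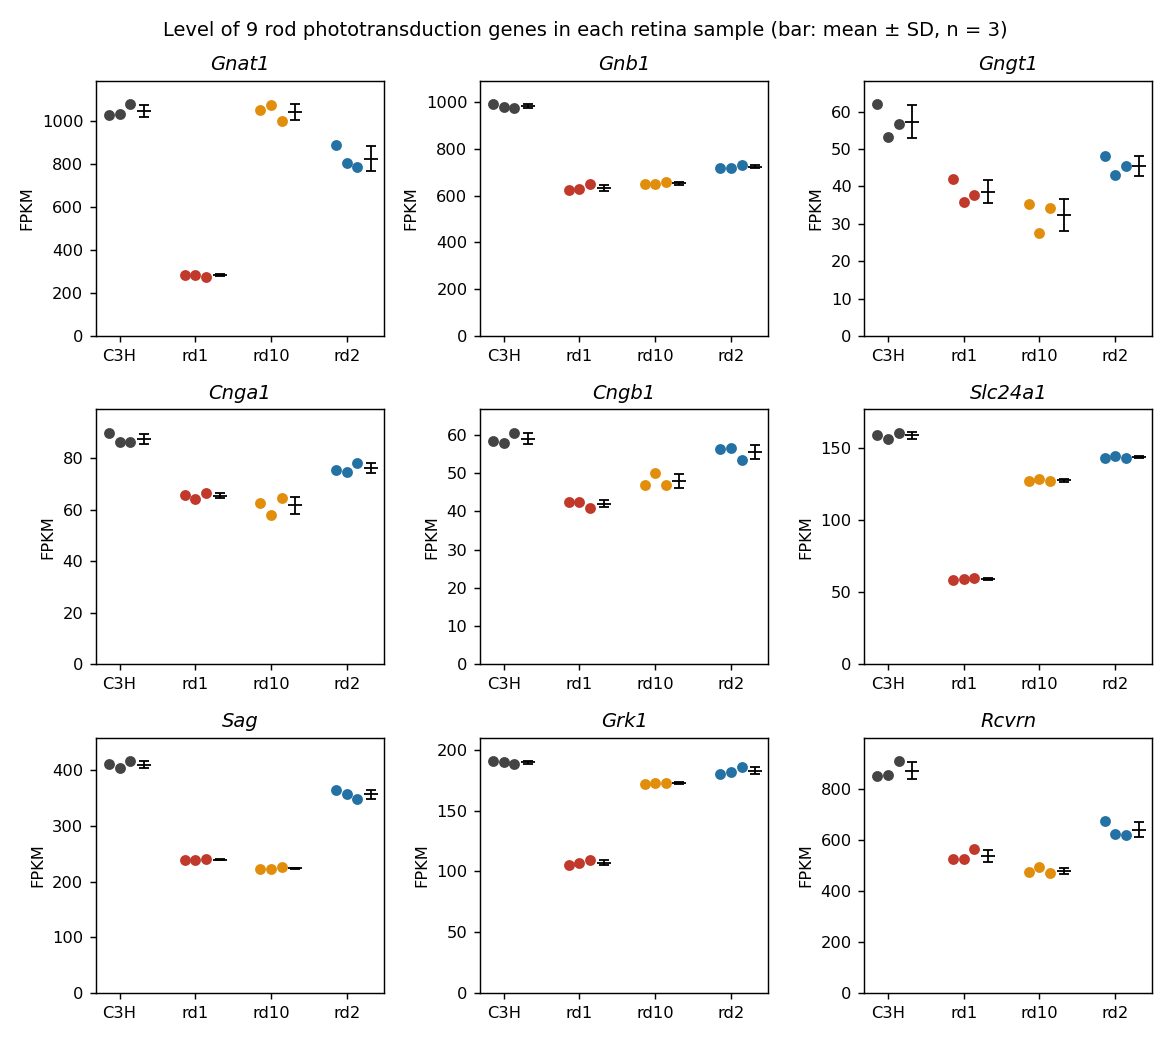
FPKM of each of the 9 genes (vertical axes from 0) in the 3 samples of C3H, rd1, rd10 and rd2, each point a sample and each bar the mean ± SD of 3. Gnat1 sits at 277 to 285 FPKM in rd1 and at 1003 to 1073 in rd10, where it overlaps C3H, whereas Sag sits at 239 to 240.2 in rd1 and 223 to 226 in rd10, both below C3H.

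Ordered by FPKM, a level per length, the C3H retina held most Gnat1 (1046 ± 28.5, SD, n = 3), then Gnb1 (982 ± 8.69), Rcvrn (871 ± 32.8), Sag (411 ± 6.36), Grk1 (189.8 ± 1.28), Slc24a1 (159 ± 2.23), Cnga1 (87.3 ± 2.11), Cngb1 (59.0 ± 1.38) and Gngt1 (57.3 ± 4.36). Cngb1 and Gngt1 overlapped in their samples, and no other neighbours in this order did. Gnat1 ranked 6 and Gnb1 7 among all genes of the table by mean FPKM in C3H. The order was the same in rd10 and rd2. In rd1, Gnat1 fell behind Gnb1 and Rcvrn, to rank 25 among all genes, and Slc24a1 fell behind Cnga1, in each case with no overlap of the samples.

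Transducin carries the signal from the pigment to PDE6, and its 3 subunit genes did not move together. Gnat1 (ENSMUSG00000034837, chr9:107674474-107679712, minus strand, GRCm38 as for all positions here), the rod alpha subunit, stood at 1027, 1033 and 1079 FPKM in C3H, 284, 285 and 277 in rd1, 1052, 1073 and 1003 in rd10, and 890.2, 803 and 784 in rd2. The rd1 samples lay far below all others, the rd10 samples overlapped C3H, and the rd2 samples lay below C3H without overlap. The log2 fold change of Gnat1 against C3H (± SE, edgeR) was -1.96 ± 0.027 in rd1 (adjusted p = 5.44e-25), -0.060 ± 0.033 in rd10 (adjusted p = 0.137) and -0.37 ± 0.050 in rd2 (adjusted p = 2.10e-04).

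Gnb1 (ENSMUSG00000029064, chr4:155491361-155559269, plus strand) encodes the beta subunit, which other G proteins in many cells also use. It stood at 991, 981 and 974 FPKM in C3H, 627, 628 and 648 in rd1, 648, 649 and 660.3 in rd10, and 720.2, 721 and 733 in rd2. All 3 models lay below C3H without overlap. Against C3H the log2 fold change (± SE, edgeR) was -0.70 ± 0.024 in rd1 (adjusted p = 3.27e-17), -0.65 ± 0.028 in rd10 (adjusted p = 4.73e-14) and -0.47 ± 0.035 in rd2 (adjusted p = 7.04e-07). Gngt1 (ENSMUSG00000029663, chr6:3993792-3997436, plus strand), the rod gamma subunit, stood at 62.0, 53.3 and 56.7 FPKM in C3H, 41.9, 35.9 and 37.7 in rd1, 35.3, 27.6 and 34.3 in rd10, and 48.1, 42.9 and 45.3 in rd2. Every model sample was below every C3H sample, with the widest spread of the 9 genes in rd10. For Gngt1 the log2 fold change against C3H (± SE, edgeR) was -0.64 ± 0.050 in rd1 (adjusted p = 2.07e-10), -0.88 ± 0.068 in rd10 (adjusted p = 6.81e-10) and -0.37 ± 0.062 in rd2 (adjusted p = 0.00160). Under scaling by library totals and under limma on FPKM values the rd1 change of Gngt1 was -0.56 to -0.57, short of 1.5-fold.

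The cyclic GMP-gated channel and the exchanger set the rod's ion currents. Cnga1 (ENSMUSG00000067220, chr5:72603696-72644275, minus strand), the pore-forming alpha subunit, stood at 89.8, 86.1 and 86.2 FPKM in C3H, 65.5, 64.2 and 66.2 in rd1, 62.4, 58.1 and 64.5 in rd10, and 75.4, 74.5 and 78.1 in rd2. The rd1 and rd10 samples overlapped each other and lay below rd2, which lay below C3H. The fitted log2 fold change of Cnga1 against C3H (± SE, edgeR) was -0.49 ± 0.029 in rd1 (adjusted p = 1.57e-12), -0.56 ± 0.039 in rd10 (adjusted p = 1.16e-10) and -0.23 ± 0.043 in rd2 (adjusted p = 0.00334). None of these reached 1.5-fold. A transcribed pseudogene on the same strand, Gm5297, lies within Cnga1 and held 152 to 266 reads a sample, against 6876 to 13092 for Cnga1.

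Cngb1 (ENSMUSG00000031789, chr8:95239045-95306585, minus strand), the modulatory beta subunit of that channel, stood at 58.5, 57.9 and 60.5 FPKM in C3H, 42.4, 42.5 and 40.9 in rd1, 46.8, 49.99 and 46.9 in rd10, and 56.4, 56.6 and 53.5 in rd2. Here rd1 was lowest, then rd10, then rd2, with no overlap between groups. Relative to C3H, Cngb1 had a log2 fold change that (± SE, edgeR) was -0.57 ± 0.030 in rd1 (adjusted p = 1.46e-13), -0.36 ± 0.037 in rd10 (adjusted p = 7.60e-08) and -0.12 ± 0.044 in rd2 (adjusted p = 0.104). Slc24a1 (ENSMUSG00000034452, chr9:64922861-64951607, minus strand), the rod exchanger NCKX1, stood at 159, 156 and 161 FPKM in C3H, 58.7, 59.0 and 59.8 in rd1, 127, 128 and 127 in rd10, and 143, 144 and 143 in rd2. Its rd1 samples were at 37.3% of the C3H mean, against 80.3% in rd10 and 90.4% in rd2, and no groups overlapped. For Slc24a1, the log2 fold change against C3H (± SE, edgeR) was -1.50 ± 0.029 in rd1 (adjusted p = 3.51e-22), -0.37 ± 0.032 in rd10 (adjusted p = 4.12e-09) and -0.18 ± 0.040 in rd2 (adjusted p = 0.0107).

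Among the genes that end the response, Sag (ENSMUSG00000056055, chr1:87803680-87845158, plus strand), rod arrestin, stood at 411, 404 and 417 FPKM in C3H, 239.9, 239 and 240.2 in rd1, 223, 223 and 226 in rd10, and 365, 358 and 349 in rd2. The rd1 and rd10 samples lay close together, with rd10 just below rd1, and rd2 lay between them and C3H. In the test against C3H the log2 fold change of Sag (± SE, edgeR) was -0.85 ± 0.024 in rd1 (adjusted p = 8.14e-19), -0.93 ± 0.029 in rd10 (adjusted p = 2.29e-16) and -0.23 ± 0.037 in rd2 (adjusted p = 0.00101). Rcvrn (ENSMUSG00000020907, chr11:67695326-67703333, plus strand), recoverin, which cones and some bipolar cells also make, stood at 849.7, 855 and 909 FPKM in C3H, 526, 524 and 566 in rd1, 473, 493 and 471 in rd10, and 674, 625 and 619.8 in rd2. Its order of groups was that of Sag, with rd10 lowest. The fit for Rcvrn gave values in the same order, and its log2 fold change against C3H (± SE, edgeR) was -0.77 ± 0.034 in rd1 (adjusted p = 7.71e-15), -0.92 ± 0.037 in rd10 (adjusted p = 1.59e-14) and -0.48 ± 0.049 in rd2 (adjusted p = 1.77e-05). Rcvrn lies within Glp2r, which is on the opposite strand and held 49 to 197 reads a sample against 9285 to 21376 for Rcvrn.

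Grk1 (ENSMUSG00000031450, chr8:13405081-13421951, plus strand), the kinase that phosphorylates the activated pigment and, in mice, serves cones as well, stood at 191, 190.4 and 188 FPKM in C3H, 105, 107 and 109.8 in rd1, 172, 173 and 173 in rd10, and 180.5, 182 and 186 in rd2. Only the rd1 samples were far below C3H, and the rd10 and rd2 samples lay just below it without overlap. The log2 fold change against C3H for Grk1 (± SE, edgeR) was -0.90 ± 0.026 in rd1 (adjusted p = 1.74e-18), -0.19 ± 0.029 in rd10 (adjusted p = 1.25e-05) and -0.087 ± 0.037 in rd2 (adjusted p = 0.172). Sag and Rcvrn were therefore called in both Pde6b models and Grk1 in rd1.

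**Figure D2:**
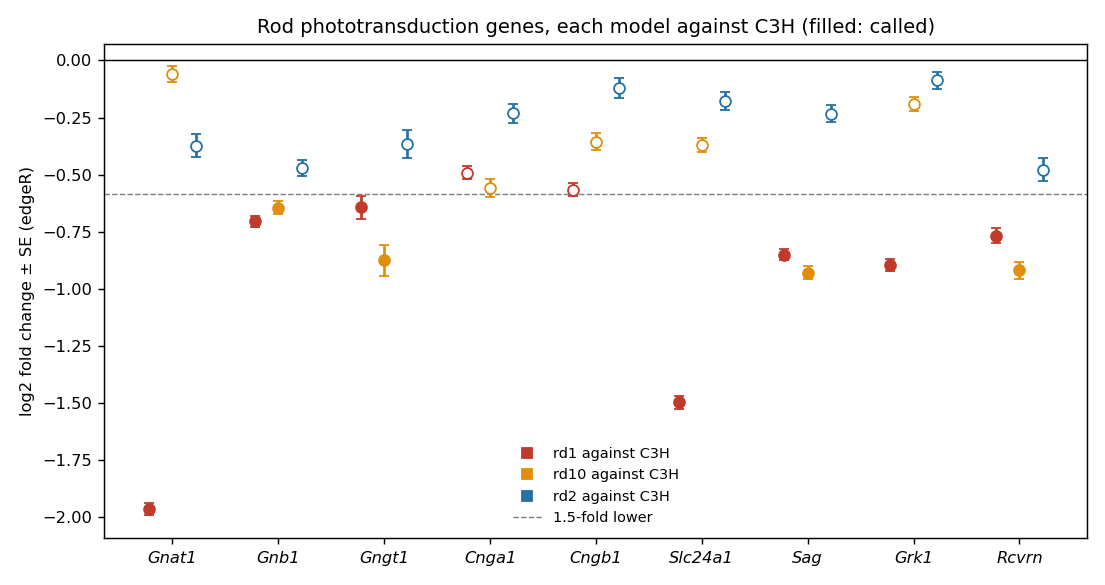
Log2 fold change against C3H (vertical axis, ± SE, edgeR) of the 9 genes in rd1, rd10 and rd2, filled where called and with a dashed line at 1.5-fold lower. In rd1 the values run from -0.49 for Cnga1 to -1.96 for Gnat1, and in rd10 Gnat1 has the value nearest to 0, -0.060.

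The models were also compared with each other in a fit of all 12 samples, which answers whether a gene's level differed between them without the C3H samples as reference. Between rd10 and rd1, 3 of 9 genes were called, all higher in rd10, where 17.6% of all tested genes were called higher. These were Gnat1 (1.93 ± 0.044, adjusted p = 3.80e-18, edgeR), Slc24a1 (1.15 ± 0.033, adjusted p = 1.36e-16) and Grk1 (0.73 ± 0.031, adjusted p = 7.39e-14). The differences of Sag (-0.053 ± 0.030, edgeR adjusted p = 0.135) and Cnga1 (-0.040 ± 0.041, adjusted p = 0.420) did not pass the test. Gnb1, Gngt1, Rcvrn and Cngb1 differed by -0.20 to 0.24, under the fold limit. Age and, per the methods, strain differ between these models along with the allele and cannot be told apart from it.

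Between rd1 and rd2, 4 of 9 were called, all lower in rd1 against a background of 8.21%, namely Gnat1 (-1.62 ± 0.044), Slc24a1 (-1.34 ± 0.033), Grk1 (-0.83 ± 0.031) and Sag (-0.64 ± 0.030). The change of Sag was -0.57 to -0.58, short of 1.5-fold, under scaling by library totals and under limma on FPKM values. The other 5 differed by -0.26 to -0.47. Between rd10 and rd2 the called gene was Sag, lower in rd10 (-0.69 ± 0.030, edgeR adjusted p = 1.35e-13; background 6.16%). Gnat1 was higher in rd10 than in rd2 by 0.32 ± 0.043 (edgeR adjusted p = 3.82e-06), the reverse of the other 8 genes, and short of 1.5-fold. Age differs in both comparisons with rd2, which was taken at day 29, against day 13 for rd1 and day 23 for rd10. Strain differs between rd10 and rd2 per the methods, and between rd1 and rd2 if the labels hold. These cannot be told apart from the mutation.

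Ratios of FPKM values within a library do not depend on how libraries were scaled, and 6 were formed after the levels had been seen. With 3 samples against 3, the exact two-sided permutation test cannot give a p below 0.1. The ratio of Gnat1 to Gnb1 was 1.04, 1.05 and 1.11 in C3H, 0.454, 0.454 and 0.427 in rd1, 1.62, 1.65 and 1.52 in rd10 and 1.24, 1.11 and 1.07 in rd2. It was thus lower than in C3H in rd1 and higher in rd10, each without overlap (exact permutation p = 0.1, adjusted over 18 tests 0.15), while rd2 overlapped C3H. Gnat1 to Gngt1 moved the same way, by -1.32 on the log2 scale in rd1 and 0.82 in rd10, with -0.0088 in rd2.

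Grk1 relative to Sag was 0.464, 0.471 and 0.452 in C3H and 0.439, 0.446 and 0.457 in rd1, which overlapped, and 0.772, 0.774 and 0.767 in rd10, above both. In rd2 it was 0.494, 0.507 and 0.533, above C3H without overlap. Grk1 relative to Rcvrn, the protein that restrains it, changed from C3H by -0.13 on the log2 scale in rd1, 0.73 in rd10 and 0.39 in rd2, each without overlap (exact permutation p = 0.1). Slc24a1 to Cnga1 was 1.77, 1.81 and 1.86 in C3H, 0.896, 0.919 and 0.904 in rd1 and 2.03, 2.21 and 1.97 in rd10, below and above C3H without overlap. In rd2 it was 1.90, 1.94 and 1.83, which overlapped C3H. For the 2 channel subunits, Cnga1 to Cngb1 differed from C3H by 0.074 in rd1, -0.20 in rd10 and -0.11 in rd2 on the log2 scale, with overlap of the samples in rd1 and rd2 and none in rd10.

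**Figure D3:**
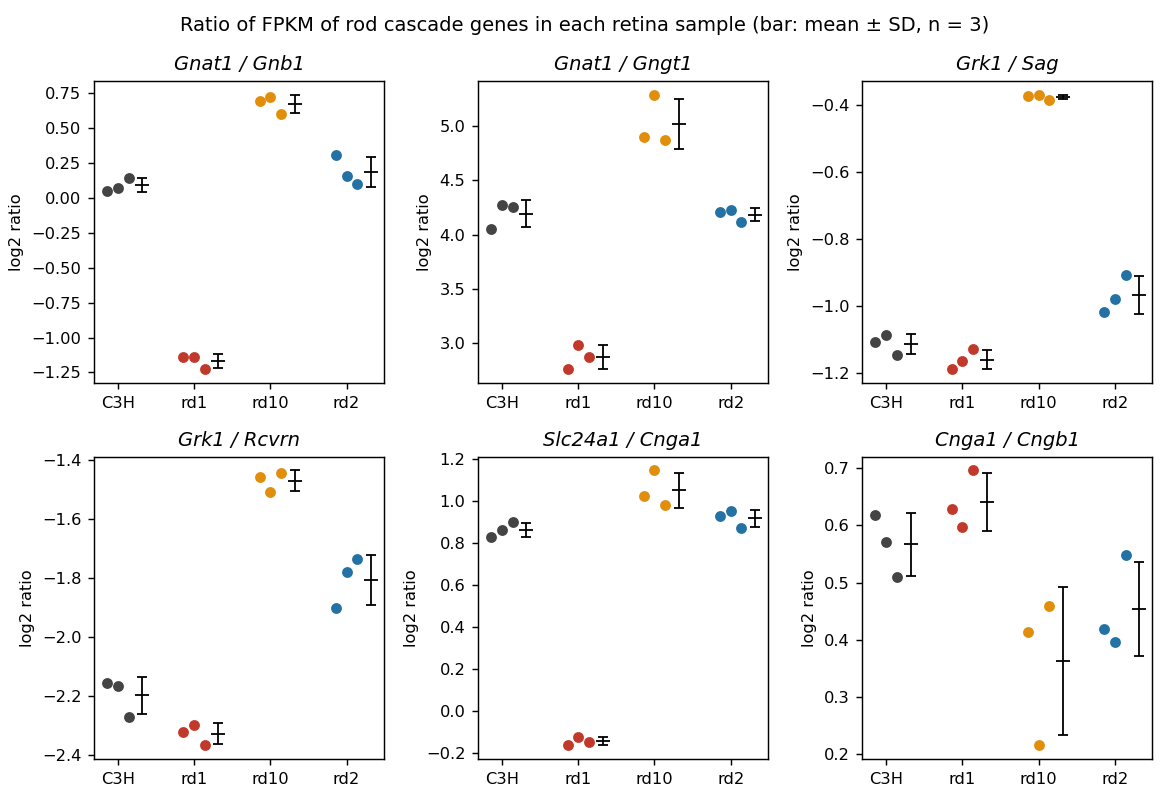
Log2 ratio of FPKM values (vertical axes) for 6 pairs of cascade genes in each sample of the 4 groups, with the mean ± SD of 3 beside the points. For Gnat1 against Gnb1 the rd1 samples lie below and the rd10 samples above C3H, with group means of -1.17, 0.68 and 0.090.

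The other 15 genes of the cascade in a list of PDE6 subunits, guanylate cyclases and their activators, the GTPase-accelerating complex and chaperones gave 10 lower and 0 higher in rd1, 3 lower and 1 higher in rd10, and 1 lower and 0 higher in rd2. Their median log2 fold changes were -0.81, -0.35 and -0.18. Of all tested genes, 6.03%, 8.08% and 1.89% were called lower in rd1, rd10 and rd2, and 15.9% higher in rd10. Called in both Pde6b models were Pde6g, the inhibitory subunit of PDE6 (-0.81 ± 0.029 in rd1, -0.81 ± 0.036 in rd10), Gucy2f, a guanylate cyclase that makes cyclic GMP (-0.67 ± 0.035 and -0.76 ± 0.042), and Guca1a, a calcium-sensing activator of guanylate cyclase. Guca1a went in opposite directions, -1.98 ± 0.063 in rd1 and 0.73 ± 0.056 in rd10 (edgeR adjusted p = 9.65e-18 and 5.77e-10), with 20.2 to 22.6 FPKM in rd1, 78.0 to 87.9 in C3H and 132 to 149.9 in rd10.

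Among 10 rod markers outside the cascade, 4 were called lower in rd1, 5 in rd10 and 5 in rd2, with 0 higher in each. Their medians were -0.49, -0.54 and -0.56. The shares of all tested genes called lower were 6.03% in rd1, 8.08% in rd10 and 1.89% in rd2. At an adjusted edgeR p under 0.05 without a fold limit, 8 of the 10 rod markers were lower and 2 higher in rd1. These counts were 10 and 0 in rd10 and 8 and 0 in rd2. Of all tested genes, 21.3%, 26.3% and 5.17% were lower at this threshold in rd1, rd10 and rd2. In rd1, 4015 of 18310 were higher. In rd2, where 0 of the 9 cascade genes were called, the 5 called rod markers were Esrrb, Fscn2, Nr2e3, Nrl and Reep6, named after their values were seen, and the median of the cascade genes was -0.23. No rod marker of this list was called in both rd1 and rd10.

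Cone genes took another course in rd10. Of 11 cone counterparts, 5 were called lower and 1 higher in rd1, and 1 lower and 6 higher in rd10. Of all tested genes, 6.03% were called lower and 8.98% higher in rd1. In rd10 these shares were 8.08% and 15.9%. In rd2 0 were called in either direction by edgeR or DESeq2. At an adjusted edgeR p under 0.05 without a fold limit, 1 cone counterpart was lower and 3 higher in rd2. Of all tested genes, 5.17% were lower and 842 of 18581 higher in rd2 at this threshold. The medians of the 11 cone counterparts were -0.58, 0.59 and -0.042 in rd1, rd10 and rd2. Those called in both Pde6b models were Pde6h, the cone PDE6 inhibitory subunit (-1.50 ± 0.098 in rd1, 2.39 ± 0.056 in rd10), Opn1mw, the medium-wavelength opsin (-1.50 ± 0.061 and 0.70 ± 0.046), Slc24a2, the cone exchanger (-0.65 ± 0.043 and 1.17 ± 0.048), and Gngt2, the cone transducin gamma subunit. Gngt2 alone of these was higher in rd1 and lower in rd10 (0.95 ± 0.061 and -0.95 ± 0.082).

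**Figure D4:**
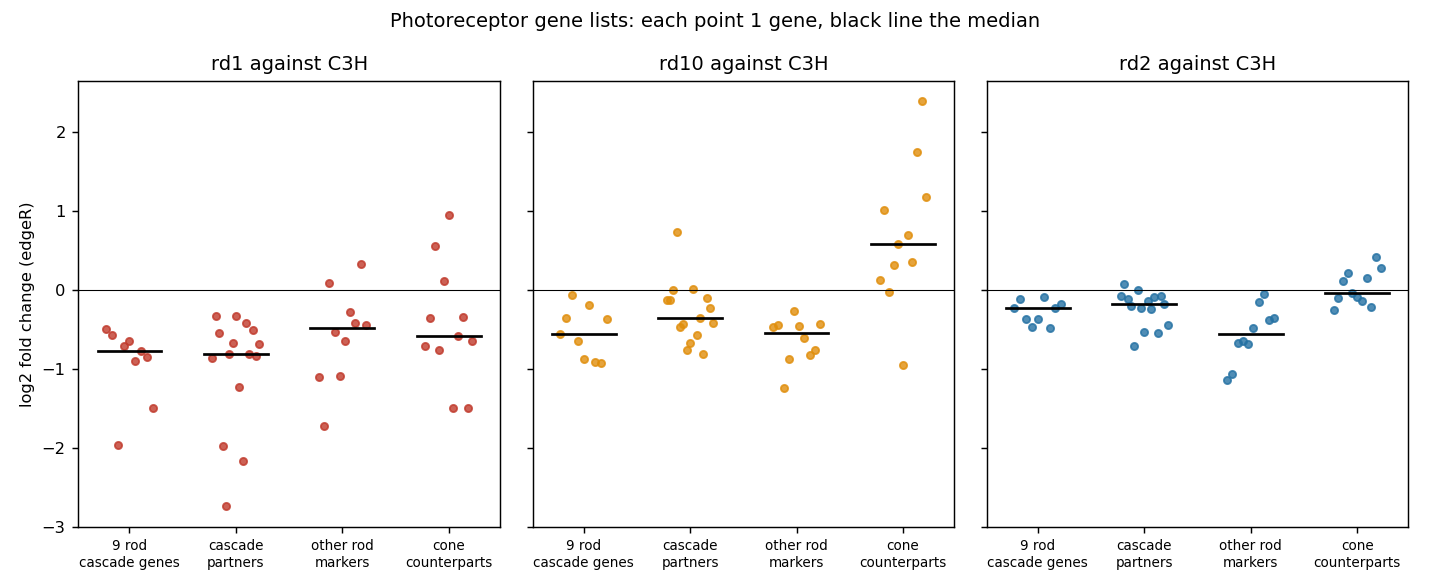
Log2 fold change against C3H (vertical axis, edgeR) of each gene in 4 lists for rd1, rd10 and rd2, each point a gene and each black line a list's median. In rd10 the medians are -0.56 for the 9 rod cascade genes and 0.59 for the 11 cone counterparts.

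For 7 of the 9 genes a cone gene does the matching task, and the log2 ratio of FPKM, rod to cone, was compared over 21 tests. Whether cones alone make these cone genes was not tested. Their levels were unlike, with a C3H mean of 109 FPKM for Gnb3 and 22.9 for Gnat2. For the 7 pairs, the results were as follows. The ratio was below C3H without overlap for 6 of 7 pairs in rd1, 6 of 7 in rd10 and 3 of 7 in rd2, and above it for 0. Each such pair had the smallest exact permutation p the design allows, 0.1, and 0.14 after adjustment. Gnat1 to Gnat2 was 5.48, 5.51 and 5.55 in C3H, 4.32, 4.37 and 4.23 in rd1, 5.15, 5.17 and 5.08 in rd10 and 5.11, 4.83 and 4.83 in rd2. The rd1 samples had the lowest ratio, with Gnat2 itself called lower there (-0.76 ± 0.047). In rd10, where Gnat1 overlapped C3H, the log2 fold change of Gnat2 was 0.32 ± 0.044, short of 1.5-fold.

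Sag to Arr3, cone arrestin, was 4.15, 4.10 and 4.23 in C3H, 3.99, 3.999 and 4.07 in rd1, 3.10, 3.09 and 3.11 in rd10 and 4.16, 4.30 and 4.11 in rd2. Here rd10 stood apart and rd2 overlapped C3H. Slc24a1 to Slc24a2 was 4.56, 4.54 and 4.54 in C3H, 3.70, 3.71 and 3.68 in rd1, 3.00, 3.11 and 2.90 in rd10 and 4.04, 4.24 and 4.02 in rd2, lowest in rd10. Gnb1 to Gnb3 differed from C3H by -0.83 in rd1 and -1.23 in rd10. Cnga1 to Cnga3 differed by -0.13 in rd1, where the samples overlapped, and -1.57 in rd10, and Cngb1 to Cngb3 by -1.13 and -0.32. Gngt1 to Gngt2 differed by -1.59 in rd1 and by 0.073 in rd10 with overlap (exact permutation p = 0.5), both genes being lower in rd10.

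**Figure D5:**
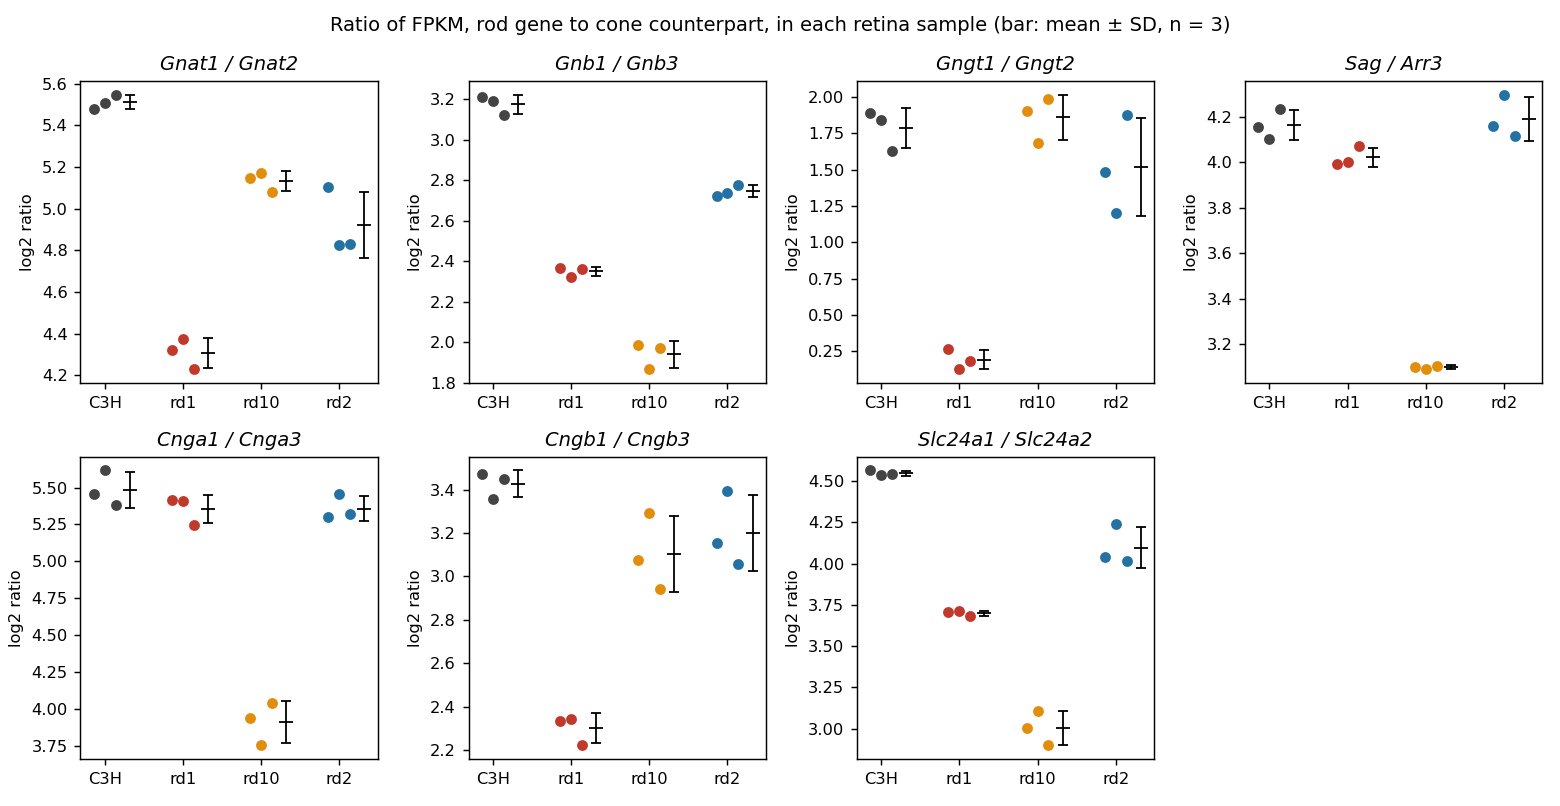
Log2 ratio of FPKM, rod gene to cone counterpart (vertical axes, not from 0), for 7 pairs in each sample, with the mean ± SD of 3. The ratio is lowest in rd1 for Gnat1, Gngt1 and Cngb1 and lowest in rd10 for Gnb1, Sag, Cnga1 and Slc24a1, with rd10 overlapping C3H for Gngt1.

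Other cell types also moved with the groups. Microglia markers summed to 77.9 to 88.8 FPKM in rd10 against 23.3 to 24.3 in C3H, 24.3 to 25.0 in rd1 and 20.0 to 21.9 in rd2. In rd10, 6 of 7 were called higher, as were 15.9% of all tested genes. Mueller glia markers summed to 398 to 406 FPKM in rd1 against 787 to 810.5 in C3H. In rd1, 4 of 6 were called lower, as were 6.03% of all tested genes. In rd10 they summed to 741 to 794, with 1 called lower and 1 higher and a median log2 fold change of -0.25. At an adjusted edgeR p under 0.05 without a fold limit, 4 were lower and 2 higher in rd10. Apoe was the gene called in both Pde6b models (-0.59 ± 0.052 in rd1, 1.28 ± 0.063 in rd10). Pigment epithelium markers summed to 14.8 to 16.7 in rd1 and 23.9 to 26.9 in C3H. In rd1, 4 of the 5 tested were called lower, as were 6.03% of all tested genes. Bipolar markers summed to 217 to 219, 222 to 231 and 246 to 264 in rd1, rd10 and rd2 against 240.5 to 246 in C3H. Of 7 bipolar markers 1 was called lower in rd1, as were 6.03% of all tested genes. In rd10 and rd2 0 were called by edgeR or DESeq2. At an adjusted edgeR p under 0.05 without a fold limit, 6 were lower and 1 higher in rd10, and 0 either way in rd2. Of all tested genes, 26.3% were lower and 5188 of 18704 higher in rd10 at this threshold. Of the lens markers Lim2 had at most 3 reads in every sample of each group. The part of these cell types in the values of the 9 genes was not tested.

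The remaining lists held few calls. Amacrine markers (5) and ganglion markers (5) had 0 called by edgeR and 0 by DESeq2 in any model against C3H. At an adjusted edgeR p under 0.05 without the fold limit, 3 amacrine markers were lower and 2 higher in rd1, 2 and 2 in rd10, and 0 and 2 in rd2. For ganglion markers 4, 4 and 1 were lower in rd1, rd10 and rd2, and 0 higher. Of all tested genes, 21.3%, 26.3% and 5.17% were lower at this threshold in rd1, rd10 and rd2. Higher were 4015 of 18310, 5188 of 18704 and 842 of 18581. Amacrine medians were -0.38, -0.0040 and 0.050 in rd1, rd10 and rd2, and ganglion medians -0.32, -0.29 and -0.039. Endothelial markers (3) had 0 called by edgeR and 0 by DESeq2. At the adjusted threshold 3, 2 and 0 of them were lower in rd1, rd10 and rd2, and 0 higher. Horizontal cell markers (3) had 1 called lower, Calb1 in rd1, where 6.03% of all tested genes were. Of 3 lens markers 1 was tested, Bfsp2, called lower in rd10, where 8.08% of all tested genes were.

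The genes most like the 9 were sought by Pearson's r over the 12 samples between log2 CPM (counts scaled to library size) and the mean of the 9 centred profiles, among 10552 genes with a mean CPM of at least 10. Highest were Gm47160 (0.995), Rabgef1 (0.995), Gas7 (0.990), Abca4 (0.985) and Osbp2 (0.977). The samples within a group share a genotype, so these values describe the 4 group levels more than 12 points. Rabgef1 had means of 38.1, 18.7, 26.9 and 30.6 FPKM in C3H, rd1, rd10 and rd2. Gas7 (chr11:67455437-67688990, plus strand) ends 6335 bases before Rcvrn on the same strand, and its means were 16.1, 9.98, 11.97 and 14.1. Of the 9 themselves, Cngb1 was nearest to their own mean profile (r = 0.981) and Gngt1 farthest (0.762).

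Circular RNAs, joined back to front across a splice junction, give a readout of 6 of these genes apart from the linear counts. The table listed 25 of its 12510 circRNAs on them, 10 on Gnb1, 9 on Sag, 2 each on Grk1 and Cngb1 and 1 each on Cnga1 and Gnat1, and 13 of the 25 in a lone sample. Junction reads of Gnb1 were 27, 18 and 10 in C3H, 20, 10 and 23 in rd1, 19, 18 and 43 in rd10, 14, 32 and 26 in rd2, and its main circle was chr4:155527412-155543193 (mm10). Sag had 12, 5 and 3 in C3H, 19, 7 and 6 in rd1, 1, 2 and 5 in rd10, 8, 14 and 7 in rd2. Cnga1 had a single circle, chr5:72609454-72619132, with 12, 17 and 0 in C3H, 0, 2 and 10 in rd1, 9, 0 and 8 in rd10, 18, 14 and 0 in rd2. Counts this low leave wide spreads, and reads are not independent molecules.

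As a share of all junction reads, Gnb1 was at 0.102% ± 0.047 (SD, n = 3) in C3H and 0.146% ± 0.052 in rd1. Its own junction reads were alike, 10 to 27 in C3H and 10 to 23 in rd1. All junction reads together were 14538 to 22036 a sample in C3H and 9819 to 14966 in rd1. Sag was at 0.0377% ± 0.028 in C3H, 0.0837% ± 0.039 in rd1 and 0.0130% ± 0.010 in rd10. Model and C3H samples overlapped in all 9 comparisons of Gnb1, Sag and Cnga1, with exact permutation p from 0.2 to 1 and 0.9 or more after adjustment. With 3 samples against 3 the smallest possible p is 0.1, so this design could call no difference.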

How the data were processed

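Per the study's methods, total retinal RNA was depleted of ribosomal RNA, made into strand-marked libraries and sequenced. The authors counted reads per gene with HTSeq 0.11.2 on GRCm38 and deposited raw counts, with FPKM values they computed from the counts and gene length. Whether the counting used strand is not given in the sources used here. The authors called circRNAs with TopHat2 2.1.1 and CIRCexplorer, discarded those with fewer than 2 junction reads, and deposited junction counts with TPM, and only the junction counts were used here. DESeq2 1.26.0 and limma 3.40.6 are also named in the submitters' processing notes.

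Groups were taken from the labels. Counts were fitted over all genes with edgeR 4.0.16 (R 4.3.3, quasi-likelihood test, TMM scaling, filterByExpr), in 6 samples for each model against C3H and in all 12 between models, with Benjamini-Hochberg adjustment over all tested genes. Following the study's rule, calls needed a change of 1.5-fold or more and an unadjusted p below 0.05. All 9 genes passed the filter. FPKM ratios and circRNA shares were compared by exact two-sided permutation over samples. Alternatives were DESeq2 1.42.0, RLE size factors, library totals, other filters and thresholds, limma 3.58.1 on log2(FPKM + 1) and log2(FPKM + 0.1), a replicate block, each replicate left out, 1 fit of all 12 samples, and the C3H sample of the same day alone. The fits were also run on simulated counts, and no result here rests on that run.

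All 9 genes are named. From other lists those called in both rd1 and rd10 and the paired cone genes are named, as are the 5 genes most like the 9. Pde6b and Prph2 are named as the mutated genes, and other genes outside this rule (Nrl, Nr2e3, Fscn2, Reep6, Esrrb, Calb1, Bfsp2 and Lim2) were named after their values were seen. The 9 genes and the lists were chosen with earlier results of these data known. Each of the 9 genes had 1813 or more reads in every sample, while the circRNA values rest on 0 to 43 junction reads a gene and sample. Intervals between samples cover the spread of these libraries only.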

Additional observations from a re-analysis of the deposited data

Results flagged for a closer look

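In the fit of all 12 samples, 3 of the 9 genes were called between rd10 and rd1. A call needed an unadjusted edgeR p under 0.05 and at least 1.5-fold. All 3 were higher in rd10, where 17.6% of all tested genes were called higher. Their log2 difference, rd10 minus rd1, was 1.93 for Gnat1, 1.15 for Slc24a1 and 0.73 for Grk1. At an adjusted edgeR p under 0.05 with no fold limit, 5 of the 9 were higher and 2 lower in rd10. Of 19616 tested genes, 5920 were higher and 5304 lower at that threshold. The rd1 samples were taken at day 13 and the rd10 samples at day 23, and the methods give them different strains, so allele, age and strain cannot be told apart.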

How the results depend on the processing

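Apart from the threshold, the count of called genes among the 9 kept within 1.5 times its value in all 6 comparisons under every alternative run, and leaving out each replicate gave 4 to 5 called in rd10 against C3H and no change in the other 5. Requiring a 2-fold change with an adjusted p under 0.05 left 2 called lower in rd1 and 0 in rd10 against C3H, 2 between rd1 and rd2 and 0 between rd10 and rd2. Of all genes tested against C3H, 364 of 18310 were lower in rd1 and 647 of 18704 in rd10 at that threshold. Between rd1 and rd2, 641 of 19616 were lower in rd1. Dropping the fold limit with an adjusted p under 0.05 gave 8 in rd10 and 7 in rd2 against C3H, 7 between rd10 and rd1, 9 between rd1 and rd2 and 9 between rd10 and rd2. Many genes passed it between models, of 19616 tested in each comparison. Between rd10 and rd1, 5920 were higher and 5304 lower in rd10. Between rd1 and rd2, 3634 were higher and 4173 lower in rd1. Between rd10 and rd2, 4443 were higher and 4171 lower in rd10. At an adjusted p under 0.05 with no fold limit, a count followed under the other settings after the data were seen, 9 were lower in rd1 throughout and 8 to 9 in rd10. In rd2 both limma fits gave 4 in place of 7, losing Gnat1, Sag and Slc24a1, and leaving out each replicate gave 6 to 8. Against the C3H sample of the same day alone, which is assumed to vary like the other groups, the 27 log2 values moved by at most 0.13. That fit rests on the labelled ages being right.

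Single calls that changed lay near 1.5-fold. Gngt1 in rd1 and Sag between rd1 and rd2 lost theirs under library totals and both limma fits, while Cngb1 in rd1 gained it in the fit of all 12 samples (-0.59) and Cnga1 in rd10 without rd10 replicate 3 (-0.59). Cnga1 between rd10 and rd1 ran from -0.072 without rd10 replicate 3 to 0.0015 without rd10 replicate 2, a change of sign. Same-number correlations of deviations from group means ran from -0.46 to 0.064 between models and C3H and from -0.016 to 0.62 between models. No comparison had every same-number pair over 0.1, so the samples were not treated as paired. Some samples of different groups still varied together, with 0.62 for replicate 3 and 0.51 for replicate 2 of rd10 and rd2. The rd1 samples shared this, with 0.50 for replicate 3 of rd1 and rd2 and 0.42 for replicate 3 of rd10 and rd1. For replicate 2 these values were 0.37 and 0.38. Between unlike numbers, rd10 replicate 2 with rd2 replicate 3 had -0.60. Against C3H the higher values were between unlike numbers, such as 0.38 for rd10 replicate 2 with C3H replicate 3. What these samples share was not tested. With the replicate block the counts called were 7, 4 and 0 against C3H and 3, 4 and 1 between models, as without it, and Slc24a1 in rd2 had an edgeR adjusted p of 0.0691 in place of 0.0107.

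Leaving out replicates turned the sign of 6 differences from C3H that lay within the spread of the samples. The log2 ratio of Gngt1 to Gngt2 in rd10 ranged from -0.0074 to 0.16 and that of Sag to Arr3 in rd2 from -0.027 to 0.064. The circRNA share of Gnb1 ranged from -0.0146 to 0.0518 percentage points in rd10 and -0.0041 to 0.0424 in rd2, and that of Cnga1 from -0.0387 to 0.0053 in rd1 and -0.0177 to 0.0346 in rd2. The cause of these changes was not tested. The circRNA values rest on at most 43 junction reads a gene and sample.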
